A study of Mus musculus with 4 samples.

Results

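Interferon-high iNKT1 cells are thymic invariant natural killer T (iNKT) cells that carry transcripts of Nkg7, a granule protein of cytotoxic lymphocytes and of iNKT1 cells, together with a set of interferon-induced genes. They were chosen by a rule on measured values. A cell of the kept matrices belonged to them where it held at least 1 unique molecular identifier (UMI, 1 counted transcript) of Nkg7, where at least 3 of the 7 genes Ifit1, Ifit3, Isg15, Rsad2, Usp18, Cmpk2 and Mx1 were detected, and where fewer than 2 of the 4 cell division genes Top2a, Birc5, Ccnb2 and Rrm2 were detected. The rule found 1282 of 19647 kept cells (6.53%), which is 10.1% of the 12685 Nkg7-positive, non-dividing cells. They are set beside 7556 reference cells, which were Nkg7-positive and non-dividing and held none of the 7 genes. The other 3847 cells held 1 or 2 of them.

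The cells came from thymi of untreated mice between 8 and 9 weeks old, 2 of the strain C57BL/6 with the wild-type allele and 2 Hivep3-/- mice, a line with a disrupted Hivep3 gene that had been backcrossed to C57BL/6. Each mouse gave 1 library, and the comparison of genotypes asks whether loss of Hivep3 goes with another number or another state of the cells. Cells binding a CD1d tetramer had been sorted as an equal mixture of CD44low and CD44high cells, so the sort sets part of every share. The number of mice limits all comparisons, and nothing is known of litters. One mouse differed in sex from the others, since C57BL/6 replicate 1 held Xist and no UMI of 4 Y-linked genes while the others held the reverse pattern, and genes of sex were left out.

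Type I interferons are released after a cell senses viral or displaced nucleic acid. They bind a receptor shared by nearly all cells, and the kinases on its tail activate transcription factors that bind a DNA element called the interferon-stimulated response element (ISRE). Interferon gamma acts through another receptor, and the factors it activates bind a different element (GAS). The genes switched on encode antiviral proteins, sensors of nucleic acid, GTPases that attack intracellular parasites, and brakes such as USP18, and in the thymus a low interferon tone is known to act on developing T cells.

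Of the 7 genes of the rule, Ifit1 and Ifit3 encode proteins that bind foreign RNA, Isg15 a ubiquitin-like modifier, Rsad2 the antiviral enzyme viperin, Usp18 the protease that removes ISG15 and brakes the receptor, Cmpk2 a mitochondrial nucleotide kinase, and Mx1 an antiviral GTPase. On the mm10 build (GRCm38), Ifit3 (chr19:34583531-34588731, plus strand) and Ifit1 (chr19:34640871-34650009, plus strand) lie 52140 bases apart. Rsad2 (chr12:26442746-26456452, minus strand) and Cmpk2 (chr12:26469204-26479837, plus strand) are neighbours that start 12752 bases apart and are read in opposite directions. Isg15 lies at chr4:156199424-156200818 on the minus strand, Usp18 at chr6:121245906-121270917 on the plus strand and Mx1 at chr16:97447035-97462907 on the minus strand. A promoter entry of RefSeq (GRCm38.p6) was matched for 5 of the 7, all but Usp18 and Mx1, and each reaches from 250 bases before the RefSeq start of the gene to 50 after it. That start is the one of the positions above for Isg15 and Rsad2, and it lies 18 bases further downstream in Ifit1, 11 further downstream in Cmpk2 and 2 further upstream in Ifit3. The ISRE was searched as GAAANNGAAA on both strands, in which matches may overlap, and it was present in 4 of the 5 promoters against 3.99% of 27025 genes in the promoter table. The GAS element was searched as TTCNNNGAA, which reads the same on both strands, and it was in none of the 5, against 9.55% of all genes. The stretches that hold the matches are shown 5′ to 3′ on the strand of the gene, because they are what 4 genes of the rule share outside their counts, with every base of a match in capitals. For Cmpk2, which held no match, the 70 bases before its RefSeq start are given for comparison.
Ifit1, chr19:34640765-34640833, plus strand: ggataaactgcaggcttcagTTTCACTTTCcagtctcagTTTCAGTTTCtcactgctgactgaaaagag
Ifit3, chr19:34583353-34583436, plus strand: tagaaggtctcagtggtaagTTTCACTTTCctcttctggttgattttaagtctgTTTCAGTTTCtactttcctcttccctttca
Isg15, chr4:156200855-156200916, minus strand: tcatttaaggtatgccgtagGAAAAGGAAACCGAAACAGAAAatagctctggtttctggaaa
Rsad2, chr12:26456543-26456592, minus strand: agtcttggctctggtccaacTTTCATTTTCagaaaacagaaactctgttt
Cmpk2, chr12:26469145-26469214, plus strand: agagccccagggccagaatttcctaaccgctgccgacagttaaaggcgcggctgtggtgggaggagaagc

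Ifit1 and Ifit3 each held 2 matches on the opposite strand, Isg15 held 3 that overlap on its own strand, and Rsad2 held 1 on the opposite strand. Counted from the RefSeq start, the first match began 104 bases before Ifit1, 156 before Ifit3, 78 before Isg15 and 120 before Rsad2. A match of letters is not a shown binding site, and the lack of one in Cmpk2 says only that these letters are not in this window.

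C57BL/6 replicate 1 gave 310 chosen cells and replicate 2 gave 254, while the Hivep3-/- replicates gave 424 and 294. Their median depth was 3872 and 4981 UMIs in C57BL/6 and 6989 and 6172 in Hivep3-/-, against 3507, 4624, 6400 and 5843 UMIs in the reference cells of the same libraries. Kept barcodes shared between any pair of libraries numbered at most 43, and 1 barcode was shared among chosen cells. The summed counts behind the levels ranged from 1446300 to 3127465 UMIs in chosen cells and from 7796082 to 12343660 in reference cells. Levels are given as UMIs per 1000000 UMIs of a library's cells in that state (CPM). They are not divided by gene length and are compared between samples, not between genes.

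The 7 genes were unequally easy to detect. Isg15 was found in 94.5% and 94.1% of the chosen C57BL/6 cells and in 93.4% and 96.9% of the chosen Hivep3-/- cells. Ifit1 was found in 83.7% to 88.1% and Ifit3 in 81.6% to 86.2% of them, Usp18 in 48.7% to 62.3%, Cmpk2 in 37.7% to 42.0%, Rsad2 in 31.0% to 33.9% and Mx1 in 22.6% to 29.9%. The commonest combination was Ifit1 with Ifit3 and Isg15 alone, in 222 cells (17.3%), followed by the same 3 genes with Usp18 in 116 cells (9.05%). All 7 were found together in 110 cells (8.58%). Of the chosen cells 534 held 3 of the genes, 320 held 4, 188 held 5, 130 held 6 and 110 held 7, and 1032 cells held 2 and lay just outside the rule. Detection of a low gene such as Mx1 depends on the depth of the cell, so these numbers do not tell how cells differ in level.

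Summed over the chosen cells, Isg15 stood at 961 and 1012 CPM in C57BL/6 and at 873 and 777 CPM in Hivep3-/-. Ifit1 stood at 507 and 549 CPM against 430 and 397, and Ifit3 at 468 and 479 CPM against 466 and 420. The reference cells held 0 by construction, so these values describe the choice and give no fold change. Across all Nkg7-positive, non-dividing cells, Isg15 was detected in 26.5%, 29.1%, 32.4% and 28.6% of cells in the same order of libraries, and Mx1 in 2.37%, 3.63%, 4.93% and 4.06%.

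The name iNKT1 was checked against 6 markers (Tbx21, Il2rb, Xcl1, Klrd1, Klrb1c and Ifng). Their summed level in the chosen cells was 1527 and 1926 CPM in C57BL/6 and 2215 and 2398 CPM in Hivep3-/-, against 2198, 2510.5, 2377 and 2558 CPM in reference cells, and all 6 were detected. The sum was lower in the chosen cells of every library. So were Klrb1c (means of 235 against 354 CPM), Klrd1 (455 against 588 CPM) and Il2rb (533 against 653 CPM). Tbx21, the factor that directs iNKT1 cells, had a mean of 93.5 CPM in the chosen cells and 101 CPM in the reference cells. Tbx21, Xcl1 (571 against 576 CPM) and Ifng (128 against 138 CPM) were not lower in every library. Markers of iNKT17 cells summed to 19.9 to 54.9 CPM. The 7 markers of iNKT2 cells (Zbtb16, Icos, Il4, Il6ra, Il17rb, Plac8 and Gata3) were higher in the chosen cells of every library, at 1048 and 725 CPM in C57BL/6 and 410 and 409 CPM in Hivep3-/-, against 668, 455, 340 and 291 CPM in reference cells. Nkg7 itself was found at a single UMI in 13.2% and 11.4% of the chosen C57BL/6 cells and in 2.83% and 4.76% of the Hivep3-/- cells. Stage 0 cells, the earliest iNKT cells, should lack it. They were taken here as cells with at least 4 of 7 stage 0 markers, Cd24a among them. Of these 85, 33, 124 and 177 cells, 11.3% to 21.5% held at least 1 UMI of Nkg7, at median depths of 4059 to 7247 UMIs. Of all kept cells, 58.0% to 75.2% held Nkg7. Each cell was also put into a class by which marker list had most members detected, after every cell had been thinned to 2000 UMIs. For this count the rule was applied again to the thinned counts. It was met by 137 and 115 cells in C57BL/6 and 162 and 114 in Hivep3-/-, fewer than the chosen cells at full depth. Of these cells 70.8% and 69.6% in C57BL/6 and 82.1% and 81.6% in Hivep3-/- were iNKT1 cells. Only 12, 8, 2 and 1 of them were iNKT2 cells (8.76%, 6.96%, 1.23% and 0.877%). In the reference cells of the thinned counts, some of which held rule genes at full depth, 7.42%, 4.58%, 2.11% and 1.64% were iNKT2 cells. The iNKT2 share was above this in C57BL/6 and below it in Hivep3-/-, where it rests on 2 and 1 cells. Counts this small do not settle a direction. The marker sum was higher in the chosen cells of all 4 libraries.

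Markers of cells that could have been carried into the sort were absent in part. Cd79a, Ms4a1 and Ebf1 of B cells, Siglech of plasmacytoid dendritic cells, Lyz2 and Csf1r of macrophages, and Rag1, Rag2 and Ptcra of double positive thymocytes had no UMI in any chosen cell. The 5 B cell markers summed to 0.691 to 4.48 CPM in chosen and 1.46 to 4.93 CPM in reference cells, in chosen cells all of it Cd79b, the 5 plasmacytoid dendritic cell markers to 0.320 to 1.45 and 0.779 to 1.78 CPM, and the 6 double positive thymocyte markers to 1.28 to 21.2 and 8.66 to 23.3 CPM. Among the last, Cd8a stood at 16.9 and 17.8 CPM in the chosen cells of Hivep3-/- and at 18.6 and 15.9 CPM in their reference cells. The 4 natural killer cell markers summed to 1.93 to 14.9 CPM in chosen and 7.82 to 17.4 CPM in reference cells, with Ncr1 at up to 12.0 CPM in chosen cells, and the 4 thymic epithelial markers to 5.14 to 15.9 and 6.72 to 20.4 CPM. The 7 macrophage and dendritic cell markers summed to 122 to 153 and 134 to 167 CPM, almost all of it Cst3, and C1qa stood at 1.45 CPM in chosen and 0.592 CPM in reference cells of Hivep3-/- replicate 2. The 4 markers of gamma delta T cells summed to 133, 196, 186 and 212 CPM in chosen and 97.7, 175, 176 and 172 CPM in reference cells, higher in the chosen cells of every library. Nearly all of that sum was Tcrg-C1 and Tcrg-C4, gamma chain constant genes that other T cells transcribe too, and Trdc, the delta chain, stood at 0, 0.691, 0 and 1.93 CPM. The part of these cells in the results was not tested.

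The share of Nkg7-positive, non-dividing cells that met the rule was 7.74% (Wilson 95% interval 6.95% to 8.61%) in C57BL/6 replicate 1, 9.81% (8.72% to 11.02%) in replicate 2, 12.53% (11.5% to 13.7%) in Hivep3-/- replicate 1 and 10.9% (9.74% to 12.1%) in replicate 2. Intervals cover counting error only. The libraries of the genotypes did not overlap, with Hivep3-/- higher. The means were 8.78% ± 1.46 and 11.7% ± 1.18 (SD, n = 2 each), a difference of 2.92 percentage points with an exact two-sided permutation p of 0.333, the smallest p that 2 against 2 libraries allow. Without C57BL/6 replicate 1 the difference was 1.88 points. Depth moved with genotype. After every cell was thinned to 2000 UMIs, leaving out 502, 91, 82 and 75 shallower cells, the shares were 4.16% and 4.90% in C57BL/6 and 5.25% and 4.6% in Hivep3-/-. The groups then overlapped, with means of 4.53% ± 0.525 and 4.92% ± 0.457 (SD, n = 2 each), a difference of 0.393 points and an exact p of 0.667. A difference in share between the genotypes was thus not shown.

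**Figure D1:**
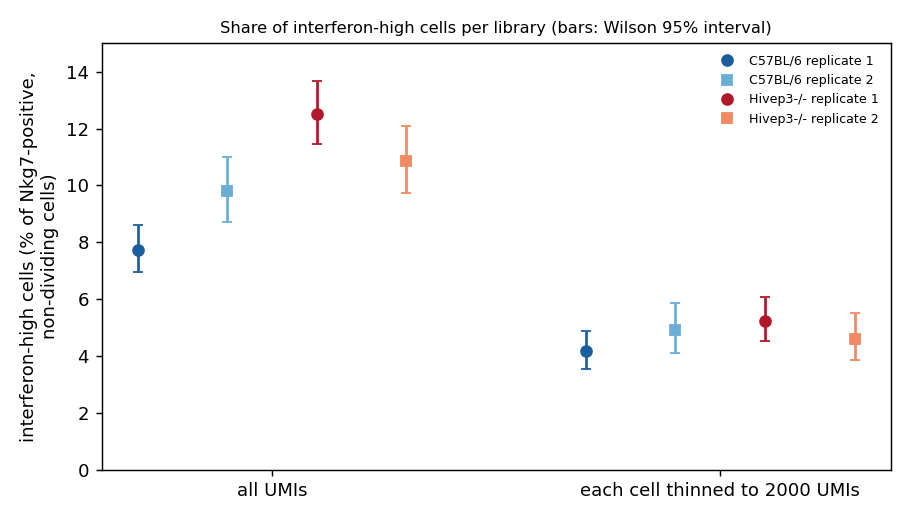
Share of Nkg7-positive, non-dividing cells that met the rule (vertical axis, percent) in each of the 4 libraries, with all UMIs on the left and with each cell thinned to 2000 UMIs on the right. Points are libraries and bars are Wilson 95% intervals, and the order of genotypes seen on the left (7.74% to 12.53%) gives way to an overlap on the right (4.16% to 5.25%).

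The same interferon genes were not confined to Nkg7-positive cells. With thinned counts, 3 or more of the 7 genes were found in 4.16%, 4.90%, 5.25% and 4.6% of Nkg7-positive cells and in 3.01%, 3.69%, 2.5% and 2.96% of Nkg7-negative cells, so the share was higher in Nkg7-positive cells in 4 of 4 libraries. Among cells classed by their markers, iNKT1 cells reached 4.16%, 4.69%, 5.47% and 4.56%, and iNKT2 cells 3.66%, 3.67%, 3.53% and 2.81%. Cells that fell into no class reached 3.53%, 5.85%, 4.64% and 4.82%, with a mean of 4.71% against 4.72% in iNKT1 cells, so iNKT1 cells did not stand above them. Shares in cells classed as stage 0 were 1.29%, 2.26%, 0.752% and 2.34% (32 of 2071 cells). For this class 2 markers could suffice and Cd24a was not required. It is therefore wider than the stage 0 cells with Cd24a in which Nkg7 was checked above. In iNKT17 cells 1.12%, 0%, 1.33% and 0% met the count (2 of 321 cells). A count of 0 among the 70 and 87 iNKT17 cells of replicate 2 of each genotype allows shares of up to 4.29% and 3.45% at 3 counts, and the exact 95% intervals reach 5.13% and 4.15%. The order from iNKT1 over iNKT2 to stage 0 was seen in each library, and it was not tested.

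All Nkg7-positive, non-dividing cells, whatever their class, were also split by genes of early and late iNKT1 cells. Early cells carried Izumo1r, a folate receptor family gene, and neither Gzma nor Ccl5, the granzyme and chemokine of late iNKT1 cells, and late cells carried either of these and no Izumo1r. Izumo1r is also a gene of iNKT2 cells, so the early cells may include some of them. At 2000 UMIs per cell, the early and the late cells met the rule in 3.90% and 3.97% in C57BL/6 replicate 1, in 3.29% and 5.30% in replicate 2, in 2.56% and 5.01% in Hivep3-/- replicate 1, and in 3.49% and 4.55% in replicate 2. The share was higher in late cells in 4 of 4 libraries, by a mean of 1.40 ± 1.06 percentage points (SD, n = 4), and by almost nothing in C57BL/6 replicate 1. Cells with none of the 3 genes met the rule in 4.34%, 5.30%, 5.99% and 4.73%, at or above the late cells in every library. For late against early cells the exact two-sided sign-flip permutation test gave p = 0.125, the smallest that 4 libraries allow. Without thinning the mean difference was 0.0243 points. The levels did not go with a higher share in late cells. With all UMIs, the 12 late iNKT1 genes summed to 1726, 2970, 4681 and 4948 CPM in the chosen cells. Their reference cells held 2533, 3184, 5447 and 5692 CPM, more in every library. The 9 early iNKT1 genes also summed lower in the chosen cells, except in Hivep3-/- replicate 1.

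**Figure D2:**
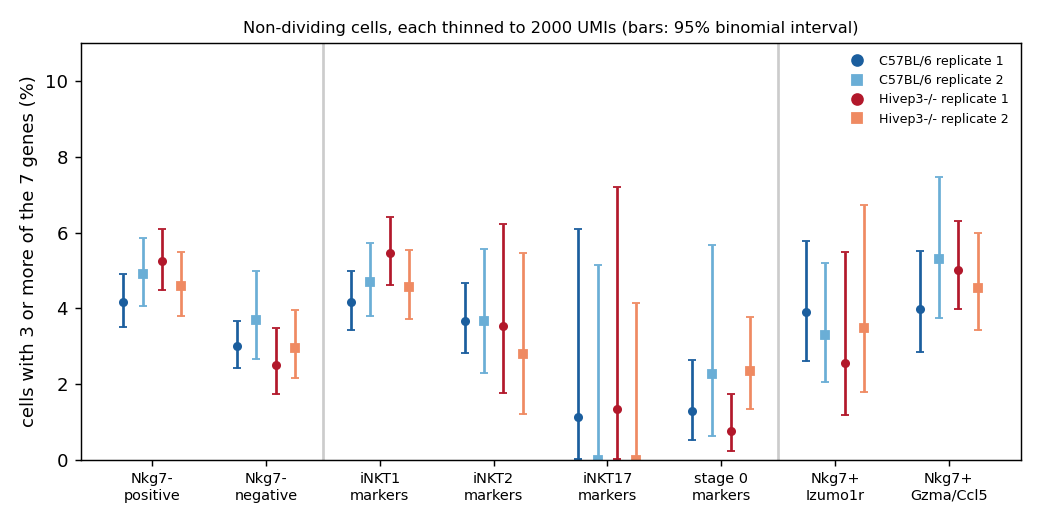
Percent of non-dividing cells with 3 or more of the 7 genes (vertical axis) by Nkg7, by marker class, and for early (Izumo1r) and late (Gzma or Ccl5) Nkg7-positive cells, each cell thinned to 2000 UMIs. Points are the 4 libraries and bars are 95% binomial intervals, exact for classes and Wilson for early and late cells. Shares run from 4.16% to 5.47% in cells with iNKT1 markers and from 0.752% to 2.34% in cells with stage 0 markers, and the intervals of iNKT17 cells are wide.

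What else the chosen cells carried was described by the log2 ratio of their level to that of the reference cells of the same library, with 1 CPM added to both. Since the rule chose the cells on genes that are induced together, these ratios carry no test. Leaving out the genes of the rule, 172 of 15739 genes (1.09%) were at least 1.5-fold higher in all 4 libraries and 18 (0.114%) at least 1.5-fold lower (35 to 69 in all of 3 libraries, leaving 1 out), and 103 of the 172 belong to one of the lists below. The median log2 ratio over all genes was -0.04.

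The genes of highest ratio were interferon-induced throughout. Ifit3b, a near copy of Ifit3, stood at 328 and 412 CPM in the chosen cells of C57BL/6 replicates 1 and 2 and at 387 and 302 CPM in those of Hivep3-/-, against 4.83 to 7.70 CPM in reference cells. Its promoter stretch is identical to that printed for Ifit3, and reads of the copies may have been assigned to either, so its mean log2 ratio of 5.58 ± 0.0790 (SD, n = 4) is not independent of the rule. Iigp1, a GTPase that damages the vacuoles of intracellular parasites, stood at 47.5, 47.0, 35.2 and 27.5 CPM against 1.15 to 1.70 CPM, a mean log2 ratio of 4.04 ± 0.445. Oasl1 (3.65 ± 0.0399) and Oasl2 (3.34 ± 0.253), relatives of the enzymes that respond to double-stranded RNA, and Slfn5 (3.58 ± 0.316), a Schlafen family gene, followed. Phf11c (3.13 ± 0.150), Rtp4 (2.88 ± 0.0938), Xaf1 (2.63 ± 0.138), Ifi214 (2.56 ± 0.135) and Tgtp1 (2.47 ± 0.361) were also among the 15 highest.

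Cxcl10, a chemokine that draws CXCR3-bearing lymphocytes, was among these genes but was made by few cells. It stood at 57.2, 29.0, 116 and 90.1 CPM in chosen cells against 2.92, 3.08, 1.30 and 7.59 CPM in reference cells. Only 30, 17, 30 and 37 chosen cells held a UMI of it, and 1 cell of Hivep3-/- replicate 1 held 222 of that library's 362 UMIs. Without the highest cell of each library the levels were 48.2, 22.1, 44.8 and 72.3 CPM, which still lay above the reference cells in every library.

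**Figure D3:**
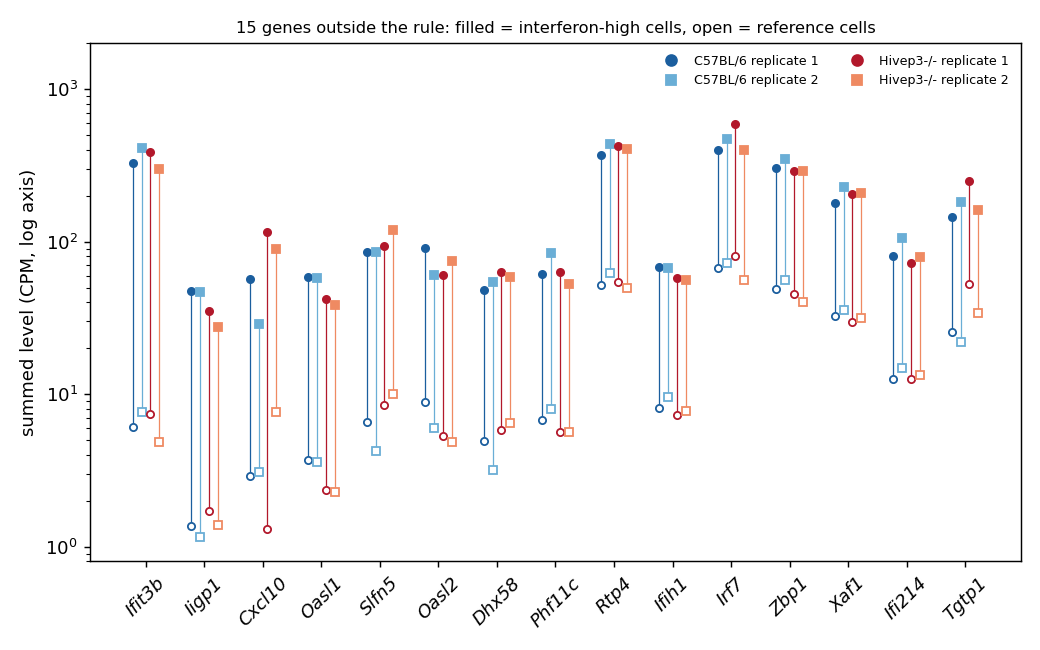
Summed level of the 15 genes of highest ratio outside the rule (vertical axis, CPM on a log scale) in interferon-high cells (filled) and reference cells (open) of each library, joined by a line. Each filled point lies above its open point. Libraries lie close together for genes such as Rtp4 (371 to 438 CPM in interferon-high cells), and are spread for Cxcl10 (29.0 to 116 CPM).

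Ligands and receptors were at like levels in both states. Of 21 interferon ligand genes 3 had any UMI, and only Ifng, interferon gamma, was above trace level, at 168, 99.6, 78.7 and 167 CPM in chosen and 195, 118, 69.5 and 170 CPM in reference cells. None of the 8 measured receptor and kinase genes passed 1.5-fold in all libraries. Ifnar1 and Ifnar2, the chains of the type I receptor, had mean log2 ratios of 0.08 ± 0.157 and 0.09 ± 0.230, and Jak1, a kinase on their tails, of -0.02 ± 0.0702.

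Among 10 transcription factors of the pathway, 4 were higher in all libraries. Irf7, which amplifies the production of type I interferon, stood at 398, 474, 589 and 398 CPM in chosen cells against 67.5, 73.0, 80.0 and 56.5 CPM in reference cells, a log2 ratio of 2.72 ± 0.141. Stat2 (2.19 ± 0.259) and Irf9 (1.46 ± 0.0443), which act together at the ISRE, were higher too. Irf1 (0.44 ± 0.186) and Irf2 (0.33 ± 0.0418) did not reach 1.5-fold in all libraries.

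Of 13 measured RNA and DNA sensors 7 were higher. Zbp1, which senses Z-form nucleic acid, stood at 302, 347, 290 and 290 CPM against 49.1, 55.9, 45.7 and 40.2 CPM (log2 ratio 2.67 ± 0.102). The RNA helicase sensors Dhx58 (3.24 ± 0.337), Ifih1 (2.78 ± 0.116) and Ddx58 (1.61 ± 0.0786) and the RNA-activated kinase Eif2ak2 (2.41 ± 0.348) were higher, as were Tlr7 and, at trace level, Tlr3. Tmem173, the adaptor STING, had a ratio of 0.33 ± 0.194 and did not pass.

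The largest list, other antiviral effectors, had 42 of 56 measured genes higher and none lower, with a median log2 ratio of 1.57. Ifi27l2a, a small mitochondrial protein, stood at 1700, 2064, 1583 and 1603 CPM against 620, 642, 491 and 445 CPM. Bst2, tetherin, which holds budding viruses at the cell surface, stood at 447, 572, 672 and 661 CPM against 119, 138, 162 and 135 CPM. Shisa5, the most abundant of the list, had a ratio of 0.45 ± 0.0490 and did not pass. In the Trim, Slfn and Ifi200 families, which hold restriction factors and nuclear DNA-binding proteins, 21 of 27 genes were higher (median 1.58), with Slfn1 at 1.88 ± 0.319 and Trim30a at 2.32 ± 0.181.

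All 16 measured GTPases known best from the response to interferon gamma were higher in all 4 libraries, with a median log2 ratio of 1.76. Ifi47 stood at 515, 573, 584 and 444 CPM against 217, 212, 266 and 193 CPM, and Igtp at 233, 330, 309 and 207 CPM against 62.8, 69.7, 73.8 and 49.1 CPM. Of 10 of these genes with a promoter entry, 9 held the ISRE letters and 6 the GAS letters, against 3.99% and 9.55% of all genes.

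Antigen presentation was higher in part. Of 22 genes of MHC class I and antigen processing 6 passed, H2-T22 (1.17 ± 0.0634), H2-T23, H2-T24, Tap1 (1.03 ± 0.185), Tapbp and Psmb10, while the classical heavy chains H2-K1 (0.16 ± 0.0830) and H2-D1 (0.12 ± 0.0855) and B2m (0.32 ± 0.05) had ratios closer to 0. In the Ly6 family 2 of 8 genes passed, Ly6a, the stem cell antigen Sca-1, at 517, 720, 671 and 520 CPM against 225, 224, 240 and 162 CPM (1.51 ± 0.228), and Ly6c1 at low level. Of 8 feedback inhibitors only Isg20, an exonuclease listed with them, passed (2.44 ± 0.0556). Socs1, a brake on the JAK kinases, had a ratio of 0.10 ± 0.176.

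Few genes of the iNKT programme passed. Among 14 iNKT1 genes only Ms4a4b, a membrane protein of T cells, passed, at 1201, 1529, 1743 and 1826 CPM against 762, 812, 1113 and 1046 CPM (0.75 ± 0.128). The 9 early and the 12 late iNKT1 genes, the 8 iNKT17 genes, the 10 genes of egress and retention and the 14 immediate-early genes had none past the threshold. All late genes but Gzmb had a negative mean ratio, with a list median of -0.48 against -0.04 over all genes. Of the 9 iNKT2 genes Il6ra (1.16 ± 0.318) and Il17rb (1.09 ± 0.418), receptors of interleukins 6 and 25, passed, beside the higher iNKT2 marker sum given above, whose part in this was not tested. Of 17 survival and death genes Mlkl, the executor of necroptosis, passed at trace level (4.34 CPM in Hivep3-/- replicate 2). None of 28 genes that the study names as differing by genotype passed.

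Lower genes were few. Among genes of at least 20 CPM, 4 were at least 1.5-fold lower in all libraries, Itm2a, Srm, Ccdc86 and Grwd1, of which the last pair was named after its values were seen. Itm2a, a membrane protein of developing thymocytes, had the lowest mean ratio, at 55.2, 68.5, 41.9 and 63.6 CPM against 121, 128, 91.5 and 121 CPM (-1.01 ± 0.120). Srm, the enzyme spermidine synthase, had a ratio of -0.90 ± 0.254, Ccdc86 of -0.71 ± 0.0694 and Grwd1 of -0.70 ± 0.0260. The others of the 10 lowest means did not reach 1.5-fold in all libraries. Bcl2, which protects from apoptosis, stood at 97.6, 109, 152 and 148 CPM against 217, 200, 260 and 217 CPM (-0.83 ± 0.245), and Slc29a1, a nucleoside transporter, had a ratio of -0.85 ± 0.268. Nrgn (-0.97 ± 0.724), Klra7 (-0.96 ± 0.450), Ifrd2 (-0.84 ± 0.457), Hivep3 (-0.83 ± 0.300), Cd244 (-0.79 ± 0.738) and Zfp318 (-0.79 ± 0.435) varied more between libraries.

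The levels of the other interferon-induced lists were higher where more genes of the rule were detected, below and above its threshold. Cells with 2 of the 7 genes, just outside it, held 1.80 ± 0.104 times the transcription factor sum of cells with none (SD, n = 4 libraries), and cells with 3, just inside, held 2.29 ± 0.0863 times. In cells with 6 or 7 genes it was 4.06 ± 0.284 times. The interferon gamma GTPases went from 1.68 ± 0.0978 at 2 genes over 2.28 ± 0.185 at 3 to 5.80 ± 0.367 at 6 or 7, and Irf7 alone from 3.23 ± 0.182 over 4.83 ± 0.313 to 10.3 ± 1.88. The receptors and kinases stayed between 0.955 and 1.05 times, and the sum of the iNKT1 genes between 0.936 and 1.11 times, over all numbers of genes. Members of that sum went different ways. At 6 or 7 genes Ms4a4b stood at 2.59 ± 0.264 times, but Klrb1c at 0.614 ± 0.0461 and Il2rb at 0.767 ± 0.109 times. The groups with most genes were small, with no fewer than 40 cells per library.

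**Figure D4:**
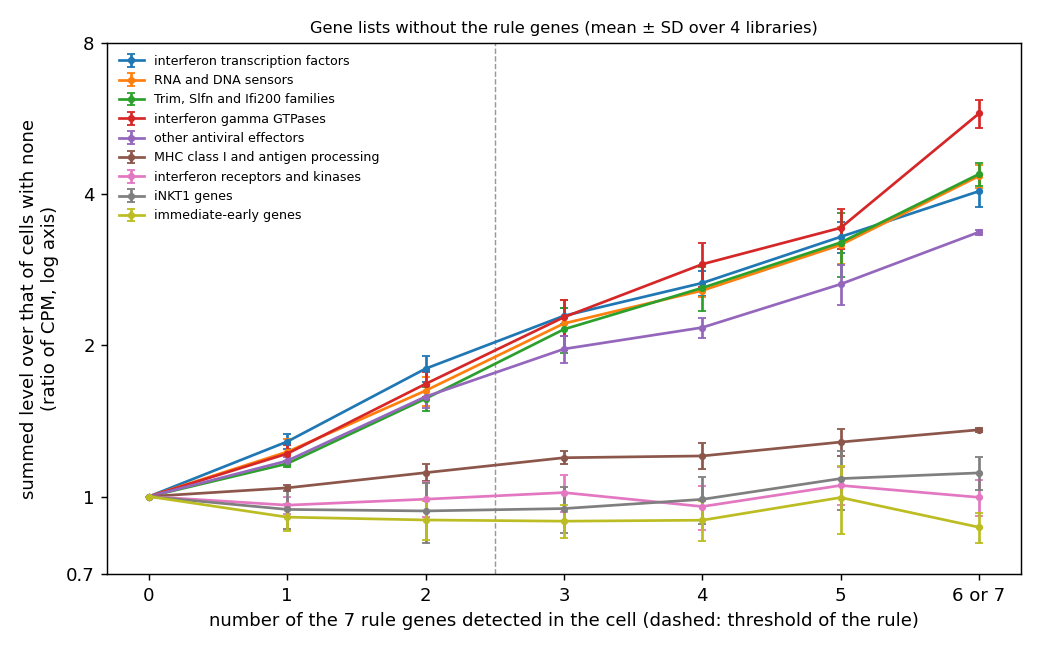
Summed level of 9 gene lists without the rule genes, as the ratio of CPM to that of cells with none of the 7 genes (vertical axis, log scale), by how many of the 7 were detected in the cell (horizontal axis). Points are means over 4 libraries, bars are SDs, and the dashed line is the threshold of the rule. The 5 lists of interferon-induced genes rise to between 3.37 and 5.80 times at 6 or 7 genes, MHC class I genes to 1.36 times, and the receptor, iNKT1 and immediate-early lists stay near 1.

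Genotypes were compared within the chosen cells by summing counts per library and testing them with edgeR. Hivep3 comes first as the targeted gene. It stood at 19.3 and 11.8 CPM in C57BL/6 and at 22.1 and 28.4 CPM in Hivep3-/- (log2 difference, Hivep3-/- over C57BL/6, 0.60 ± 0.315 SE, adjusted p = 0.709), and at 30.1 and 25.9 against 48.1 and 41.2 CPM in reference cells (0.58 ± 0.152, adjusted p = 0.237). Transcripts were therefore present in every library. The labels and methods do not say which part of the gene the knockout lacks, and 5′ counts do not show which exons were present, so this does not check the labels.

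Of 8458 genes tested in the chosen cells, 58 (0.686%) had an adjusted p under 0.05, 37 higher and 21 lower in Hivep3-/-, and for each of the 58 the libraries of the genotypes did not overlap. Without C57BL/6 replicate 1 or Hivep3-/- replicate 2 the calls fell to 27 and 31. In the reference cells 67 of 10643 genes (0.63%) were called, 48 higher and 19 lower, with 35 called without either of those libraries and 166 without C57BL/6 replicate 2. The lists share 36 genes, which is 62.1% of the first and 53.7% of the second, with the same sign in all 36. They come from the same mice.

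Chosen cells of both genotypes had to hold at least 3 of the 7 interferon genes, and reference cells none. The choice thus sets the interferon level in part, so few calls in interferon genes cannot show that the genotypes are alike in them. Few genes of the interferon programme were called between genotypes. Among its lists, the tested genes of transcription factors (10), sensors (12), feedback inhibitors (7), Trim, Slfn and Ifi200 families (22), interferon gamma GTPases (16), MHC class I (21), Ly6 (5), receptors and kinases (8) and ligands (1) had no called gene, and 1 of 53 other antiviral effectors was called, against 0.686% of all genes. Their median log2 differences ran from -0.20 to 0.12. Irf7 differed by 0.10 ± 0.188 SE (adjusted p = 0.961) and Zbp1 by -0.24 ± 0.160 (adjusted p = 0.794), which leaves room for differences larger than these errors. The called gene was Ifitm2, a membrane protein that blocks viral entry, at 46.9 and 98.9 CPM in C57BL/6 and 206 and 264 CPM in Hivep3-/- (1.62 ± 0.287, adjusted p = 0.0232). Its chosen cells lay below or above their reference cells, which held 54.5, 85.4, 173 and 336 CPM, and it was not called with C57BL/6 replicate 1 left out (1.17, adjusted p = 0.157), with Hivep3-/- replicate 2 left out (1.38, adjusted p = 0.179) or with DESeq2 (adjusted p = 0.481).

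Genes lower in Hivep3-/- were led by Drosha, the nuclear enzyme that begins microRNA processing, at 144 and 175 CPM in C57BL/6 and 12.2 and 14.0 CPM in Hivep3-/- (log2 difference -3.70 ± 0.222, adjusted p = 1.33e-05). Ckb, brain-type creatine kinase, stood at 95.1 and 102 against 13.7 and 15.9 CPM (-2.82 ± 0.221, adjusted p = 0.000131), and Lmo4, a transcriptional adaptor, at 218 and 120 against 30.1 and 21.2 CPM (-2.78 ± 0.277, adjusted p = 0.000867). Il4, the cytokine of iNKT2 cells, stood at 146 and 97.5 against 33.3 and 22.2 CPM (-2.19 ± 0.243, adjusted p = 0.00174). Cd4, a coreceptor (-2.91 ± 0.334), Icos, a costimulatory receptor (-1.24 ± 0.186), Cmtm7 (-1.23 ± 0.169) and Rora, a nuclear receptor (-1.67 ± 0.235), fell as well. Drosha, Ckb, Lmo4, Il4 and Cd4 kept their call under all 13 alternatives. Cmtm7 lost it without Hivep3-/- replicate 2 (-1.25, adjusted p = 0.0513), Icos without that library (-1.19, adjusted p = 0.102) or C57BL/6 replicate 1 (-0.97, adjusted p = 0.143), and all of Cmtm7, Rora and Icos where the cells were chosen after thinning (adjusted p = 0.158, 0.241 and 0.715). Of 9 iNKT2 genes 4 fell, Cd4, Icos, Il4 and Plac8 (-1.69 ± 0.319, adjusted p = 0.0339, and 0.209 without C57BL/6 replicate 1), where 0.686% of all genes were called, and in the reference cells Cd4 and Il4 of the 9 fell. This stands beside the lower share of iNKT2-classed cells in Hivep3-/-, which rests on 2 and 1 cells at thinned counts. The part of that share in these falls was not tested. With at least 3 UMIs of Nkg7 required in both states, an alternative added after the data were seen, 42 genes were called, 41 of them among the 58, and Icos was not called (-1.14, adjusted p = 0.0536).

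The 37 genes higher in Hivep3-/- included Ly49 receptors, a granzyme, an integrin chain and a heat shock protein. Klra1, a Ly49 receptor for MHC class I, stood at 118 and 106 CPM in C57BL/6 and 451 and 460 CPM in Hivep3-/- (1.95 ± 0.165, adjusted p = 0.00019). Klra5, of the same family, stood at 37.9 and 69.1 against 264 and 347 CPM (2.44 ± 0.266, adjusted p = 0.00174). Receptors of this family are near copies of each other, so reads may be divided between them and the call of a single member is uncertain. Itga4, an integrin chain (2.65 ± 0.299), Gzmc, a granzyme (2.55 ± 0.303), S100a4 (2.12 ± 0.271), Hspa1b, a heat shock protein (2.46 ± 0.337), the chemokine receptor Cx3cr1 (2.54 ± 0.352) and the signalling chain Fcer1g (1.33 ± 0.190) rose. Klra1, Klra5, Itga4, Gzmc, S100a4 and Hspa1b kept their call under all 13 alternatives. Cx3cr1 lost it without C57BL/6 replicate 1 (2.20, adjusted p = 0.0608) and without Hivep3-/- replicate 2 (2.31, adjusted p = 0.0566), as did Fcer1g (1.11 and 1.20, adjusted p = 0.141 and 0.0677). Of 9 tested late iNKT1 genes, Ccl5, Fcer1g, Klra5 and Klrc1 were higher and Gzma and Klra9 lower. Of 9 early iNKT1 genes Izumo1r was lower, where 0.686% of all genes were called. In reference cells Ccl5, Klra9 and Izumo1r of these lists were called, where 0.63% of all genes were. In the chosen cells, Ccl5 lost its call without Hivep3-/- replicate 2 (adjusted p = 0.102), Gzma without that library or C57BL/6 replicate 2 (adjusted p = 0.248 and 0.255), Klrc1 without any of the libraries but Hivep3-/- replicate 1 (adjusted p = 0.0913 to 0.247), and Klra9 and Izumo1r without any 1 of the 4 (adjusted p = 0.0524 to 0.257). Of 28 genes the study names as differing by genotype, a list chosen on these samples and so not independent, 3 were higher and 8 lower, and in reference cells 2 and 6. The shares called over all genes were 0.686% in chosen and 0.63% in reference cells.

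**Figure D5:**
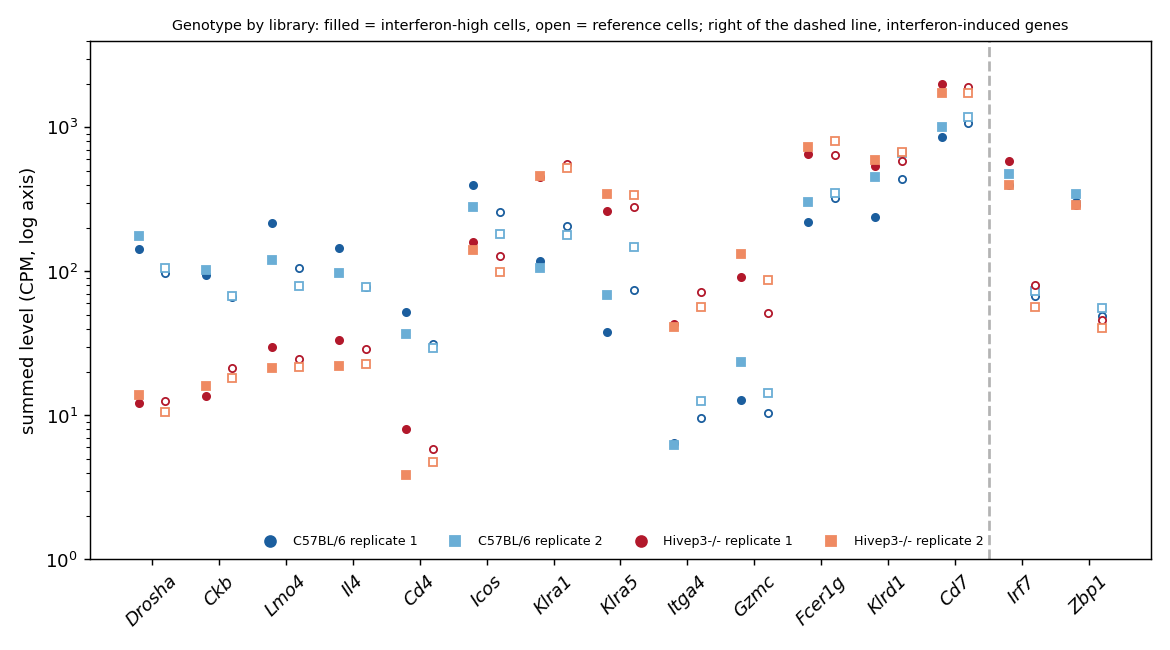
Summed level (vertical axis, CPM on a log scale) in interferon-high cells (filled) and reference cells (open) of each library. Left of the dashed line are genes called between genotypes in interferon-high cells, and Klrd1, which was called in neither state and is described below. Right of it are the interferon-induced genes Irf7 and Zbp1. Blue C57BL/6 and red Hivep3-/- points separate for genes such as Drosha (144 and 175 against 12.2 and 14.0 CPM), while for Irf7 and Zbp1 the genotypes overlap or lie close and the states are apart.

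Whether the genotype difference was another in the chosen than in the reference cells was asked by an interaction term with library as a block. It was called in 14 of 10342 genes (0.135%), 8 with a higher and 6 with a lower difference in the chosen cells. The count was 35 without C57BL/6 replicate 1, 37 without its replicate 2 and 8 without either Hivep3-/- library. The 5 of smallest p with at least 20 CPM were Klra5 (1.03 ± 0.117 SE, adjusted p = 3.43e-06), Klrd1 (0.56 ± 0.0726, adjusted p = 4.28e-05), Cd7 (0.32 ± 0.0475, adjusted p = 0.000363), Ly6c2 (0.42 ± 0.0654, adjusted p = 0.000718) and Klra1 (0.54 ± 0.0883, adjusted p = 0.00127). For Klrd1, which encodes the natural killer receptor CD94, the C57BL/6 chosen cells held 239 and 451 CPM against 437 and 664 CPM in their reference cells, while the Hivep3-/- chosen cells held 537 and 595 against 582 and 670 CPM. For Klra5 the C57BL/6 values were 37.9 and 69.1 against 74.4 and 148 CPM and the Hivep3-/- values 264 and 347 against 280 and 339 CPM. In both, the C57BL/6 chosen cells lay below their own reference cells. The iNKT1 marker sum, which includes Klrd1, also lay lower in the chosen cells of every library, and its part in this was not tested. Plac8 (-1.05 ± 0.206, adjusted p = 0.0170) and Gzma (-0.66 ± 0.136, adjusted p = 0.0269) had the opposite sign. Cd7 and Ly6c2 were not called without Hivep3-/- replicate 1 (0.30 and 0.29, adjusted p = 0.136 and 0.469), Klra1 not without Hivep3-/- replicate 2 (0.50, adjusted p = 0.0906), and Plac8 and Gzma not without C57BL/6 replicate 2 (-0.67 and -0.25, adjusted p = 0.0972 and 0.66) or without Hivep3-/- replicate 2 (-1.43 and -0.45, adjusted p = 0.0733 and 0.768), nor Plac8 without Hivep3-/- replicate 1 (-0.73, adjusted p = 0.73). With at least 3 Nkg7 UMIs per cell 5 genes were called, and Cd7, Ly6c2 and Klra1 were no longer among them. Of the interferon lists, Samhd1, an enzyme that degrades deoxynucleotides, was called beside Ly6c2 of the Ly6 family. Samhd1 stood at 211, 289, 291 and 294 CPM in chosen and 62.8, 60.03, 112 and 96.4 CPM in reference cells (-0.52 ± 0.112, adjusted p = 0.0405), and the call did not hold without C57BL/6 replicate 2 (-0.26, adjusted p = 0.66), Hivep3-/- replicate 1 (-0.39, adjusted p = 0.758) or Hivep3-/- replicate 2 (-0.61, adjusted p = 0.194).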

How the data were processed

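Single-cell 5′ libraries (10x Genomics) of 4 mice were used. The deposited matrices hold raw UMI counts per gene and barcode, made by the authors with Cell Ranger 3.1.0 on mm10, with no normalization. The processing notes also name Seurat 3.1.4. The labels gave the groups and replicate numbers. The cells, lists and rules were chosen with earlier results of these data known.

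Cells with 500 to 4099 genes, at least 1000 UMIs and under 6% mitochondrial UMIs were kept (19647 of 22279 barcodes, with 31381738 to 48291764 UMIs per library). Doublets were scored with Scrublet (scanpy 1.11.5, Python 3.11.15). Its automatic threshold marked 0, 4, 1 and 5 cells and so had not worked, and none were removed in the main results. For comparisons of shares each cell was thinned to 2000 UMIs at random with a fixed seed.

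Counts were summed per library and state and tested with edgeR 4.0.16 (R 4.3.3). Low genes were removed by filterByExpr, sums were scaled by TMM, and p-values of the quasi-likelihood test (two-sided) were adjusted by Benjamini-Hochberg across every tested gene. DESeq2 1.42.0 was an alternative. The 7 rule genes and Nkg7 are not read from these tests. Nothing in the labels says whether mice of 1 genotype were littermates. The script was tested on simulated data. Same-numbered libraries of the genotypes deviated together with r = 0.0503 in chosen and 0.143 in reference cells over 2 pairs, and the labels name no shared litter or day, so numbers were not used as pairs.

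Named are Hivep3, the rule genes, the 15 highest and 10 lowest mean ratios with at least 20 CPM and the same sign in every library, per genotype comparison up to 8 called rises and 8 falls of smallest p without overlap, 5 interaction genes, and of each list the most abundant or called members. Cxcl10's single cells, and which of the other genes stand in the text, were chosen after the values were seen. Positions are from GENCODE vM21, which holds 99.6% of the 31053 gene identifiers. Some genes that the rules would name are not reported here.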

Additional observations from a re-analysis of the deposited data

Results flagged for a closer look

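In 5 genes the difference between genotypes was itself different in interferon-high and in reference cells, by the interaction term. On the log2 scale the difference in interferon-high cells minus that in reference cells was 1.03 for Klra5, 0.56 for Klrd1, 0.32 for Cd7, 0.42 for Ly6c2 and 0.54 for Klra1. All 5 were past the adjusted threshold in edgeR. With DESeq2 Cd7, Ly6c2 and Klra1 missed it, and where cells were chosen after thinning Klra5, Klrd1, Cd7 and Klra1 did. Groups of 2 libraries are too small to look for a single library that stands apart.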

How the results depend on the processing

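The calls between genotypes depended on the settings. In interferon-high cells 58 genes were called, 58 also with RLE factors, 45 with DESeq2 (24 higher and 21 lower), 236 with no filter on low counts, 32 where cells were chosen after thinning, and 27 to 61 when 1 library was left out. In reference cells 67 were called, 137 with DESeq2, 483 with no filter, and 35 to 166 with 1 library left out. For the interaction, 14 were called, 23 with RLE factors, 2 with DESeq2, 58 with no filter, 85 with at least 2 of the 7 genes, 43 with the highest doublet scores removed, 5 with at least 3 Nkg7 UMIs (added after seeing the data), and 8 to 37 with 1 library left out. With the replicate number as a block, 68 genes were called in interferon-high cells, 202 in reference cells and 6 for the interaction, although nothing shows that the numbers pair the mice. The Cd7 interaction turned to -0.0367 where cells were chosen after thinning.

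The count of genes higher in interferon-high cells stayed between 135 and 206 under every alternative. The count of lower genes was 18, and it was 3 with 5 CPM added, 6 and 47 with at least 2 and 4 of the 7 genes, 105 with dividing cells in the reference, 128 with cells chosen after thinning, 28 with the highest doublet scores removed, and 35 to 69 with 1 library left out. The share of interferon-high cells stayed higher in Hivep3-/- under every alternative, by 0.393 to 4.23 percentage points, and the late over early difference stayed positive, by 0.0243 to 1.84 points, with no exact test past its threshold, which neither design can reach. The depth of shallow cells limits detection of the rarer rule genes. Of the 16 genes named for genotype in interferon-high cells, 11 kept their call under all 13 alternatives. The cause of these changes was not tested.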
